A study of Arabidopsis thaliana with 12 samples.

Results

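The 30 nuclear genes described here encode subunits of photosystem I, its light-harvesting antenna, and proteins of electron transfer and cyclic electron flow around it. They were chosen by locus identifier and are 30 of the 21543 loci in the count table. Among them are 12 genes for photosystem I subunits (PSAD1 to PSAO), 6 antenna genes (LHCA1 to LHCA6) and 12 genes for electron carriers and cyclic electron flow. That last group holds the ferredoxins FD2 and FD1, the ferredoxin-like FDC1 and FDC2, the reductases FNR1 and FNR2, the plastocyanins PETE1 and PETE2, the Rieske protein PETC, and PGR5, PGRL1A and PGRL1B. Chloroplast-encoded subunits such as PSAA, PSAB and PSAC were not analysed here.

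The libraries were made from whole 2-week-old Arabidopsis thaliana seedlings of the Col-0 wild type and of a med8 line. The MED8 protein belongs to Mediator, which connects transcription factors to RNA polymerase. Seedlings grew in long days on agar with Murashige and Skoog salts and sucrose, either plain (control) or with 25 nM methyl viologen in the medium throughout, and both genotypes shared this regime. The 4 groups were Col-0 control, Col-0 on methyl viologen, med8 control and med8 on methyl viologen, with 3 libraries each. The labels name neither the allele of med8 nor its background, so the mutant stands for 1 line. They also do not say whether the 3 RNA samples of a group came from separate plates or plants, so the p-values cover only the spread among these samples, which may be technical.

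Photosystem I takes electrons from plastocyanin in the thylakoid lumen and, with light, raises them to ferredoxin in the stroma, where ferredoxin-NADP reductase uses them to form NADPH. Some electrons return from ferredoxin to the plastoquinone pool by cyclic flow, through the PGR5 and PGRL1 proteins or through the NDH complex. Methyl viologen accepts electrons at the stromal side of photosystem I in competition with ferredoxin and hands them to oxygen, which yields superoxide.

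All libraries were deep, at 30.47 to 34.69 M counts in total, and all 30 genes were among the 20741 loci tested. MED8 itself, as a check of the labels, lay between 18.9 and 22.2 CPM (counts scaled to the size of the library) in the 6 Col-0 libraries and between 4.85 and 6.41 CPM in the 6 med8 libraries. A pair of control libraries stood apart from the others of their groups. The chi-square per degree of freedom against the other Col-0 controls was 34.8 and 26.0 for Col-0 control replicate 1, compared with 8.89 between those 2. For med8 control replicate 3 it was 34.3 and 37.0, compared with 6.33. Results are also given without both libraries that stood apart. Col-0 control replicate 1 was the highest Col-0 control library for 30 of the 30 genes. The share of all genes for which it was the highest was not computed. Markers of root tissue (16 of 16 tested) and of green shoot tissue (5 of 5) had counts in every group. None could be at 0 throughout, because each deposited locus has at least 5 counts in at least 3 libraries. Some root markers were low, such as RSL4 at 0.51 to 1.74 CPM. Because these are whole seedlings, fewer green cells and less RNA per green cell cannot be told apart. Unless stated otherwise, levels are CPM scaled by TMM, a change is a log2 fold change ± SE from edgeR's quasi-likelihood test, and a gene is said to have risen or fallen where its Benjamini-Hochberg adjusted p over all genes tested was under 0.05.

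On control medium the 30 genes covered a wide range of levels. Divided by the summed exon length of each gene, LHCA4 and LHCA1 were the most abundant in Col-0 at 5842 and 5633 CPM per kb, followed by PSAO at 4299 and PSAL at 3943 CPM per kb. FD2, the main leaf ferredoxin, stood at 1049.7 ± 126 CPM per kb (SD, n = 3) and FD1, the minor leaf ferredoxin, at 198 ± 3.34. PGR5 stood at 102 ± 10.2 CPM per kb, PGRL1A at 283 ± 33.1 and PGRL1B, the lowest of the set, at 25.9 ± 0.686. Together the genes took 5.57 to 6.62% of all counts in the Col-0 controls and 3.71 to 4.11% in Col-0 on methyl viologen. In med8 the share went from between 5.62 and 6.09% to between 4.21 and 4.57%. The share was thus lower on methyl viologen in both genotypes, with no overlap between control and treated libraries.

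Counting could mix some of these genes with neighbours. In the RefSeq TAIR10.1 annotation, 10 of the 30 overlap a gene on the opposite strand and 2 overlap one on the same strand. How the counting treated strand is not given in the sources used here, and the counts of these 12 genes may include, or lack, reads of the overlap. Every 75-base window of FDC1 is shared with its opposite-strand neighbour AT4G14900, and 57.4% of the windows of PSAG, 48.1% of PSAH1 and 26.7% of PSAE1 are shared with such neighbours. LHCA2 shares 3.07% of its windows with AT5G28450, a gene that does not overlap it. How reads of those windows were counted was not tested. No gene pair within the set shares a 75-base window, so reads of PSAD1 and PSAD2, for example, can be told apart.

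Methyl viologen lowered most of these genes in both genotypes. In Col-0, 23 of the 30 fell, 2 rose and 5 did not pass the test, where 13.4% of all tested genes fell and 15.4% rose. In med8, 29 of the 30 fell, none rose and 1 did not pass, where 21.2% of all tested genes fell and 21.8% rose. All 30 fitted changes in med8 were below 0, so at an unadjusted p under 0.05 the count of rises was also 0, beside 29 falls, where 26.3% of all genes rose and 24.5% fell. DESeq2 gave 29 falls and 0 rises in med8, where it called 22.5% of all genes lower and 20.2% higher. The median change of the set was −0.697 in Col-0 and −0.676 in med8, and over all tested genes the medians were −0.0013 and 0.031. The medians were close, but the changes were spread more widely in Col-0, from −2.02 for FD2 to 0.38 for PGRL1A with an SD between genes of 0.547. In med8 they ran from −0.83 to −0.14 with an SD of 0.150. This difference in width describes the 30 genes and was not tested as such. The libraries of Col-0 on methyl viologen lay wholly below the Col-0 controls for 23 genes, where 21.3% of all tested genes did, and wholly above for 2, where 22.9% did. The corresponding counts in med8 were 29 below, where 25% did, and 0 above, where 28.1% did. Without both libraries that stood apart, 23 genes fell and 3 rose in Col-0, where 17.5% of all genes fell and 19% rose. The added rise was that of FD1. In med8, 29 fell and 0 rose in that fit, where 25.1% of all genes fell and 25.7% rose. The median change of the set in that fit was −0.603 in Col-0 and −0.657 in med8.

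**Figure D1:**
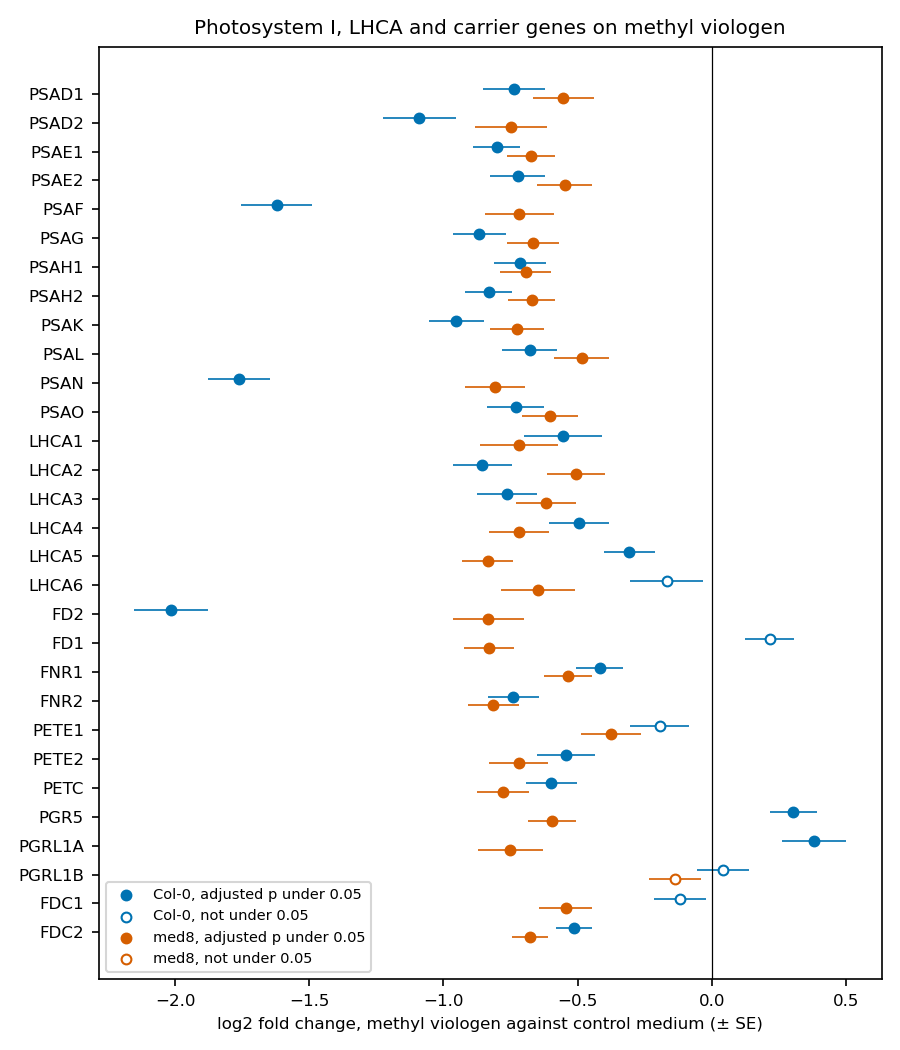
Log2 fold change on methyl viologen against control medium for the 30 genes in Col-0 (blue) and med8 (orange), with bars of ± 1 SE and filled points where the adjusted p was under 0.05. The orange points lie between −0.83 and −0.14, and the blue points spread from −2.02 (FD2) to 0.38 (PGRL1A).

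All 12 photosystem I subunit genes fell in both genotypes. Those for the subunits on the plastocyanin side, PSAF and PSAN, changed most in Col-0. PSAF (AT1G31330), the subunit that helps dock plastocyanin, lies on the minus strand of chromosome 1 at chr1:11214676-11216141. PSAF had 4765, 3735 and 3759 CPM in Col-0 control seedlings and 1174, 1470.1 and 1339.8 CPM on methyl viologen. In med8 the controls held 3241, 3739 and 4004 CPM and the treated libraries 2440.1, 2082 and 2162 CPM. Treated libraries were below controls in both genotypes without overlap, and the treated Col-0 libraries were the lowest of all. PSAF fell 3.08-fold in Col-0 (−1.62 ± 0.13, adjusted p = 7.33e-06) and 1.64-fold in med8 (−0.72 ± 0.13, adjusted p = 9.75e-04).

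PSAN (AT5G64040), a peripheral lumenal subunit on the plastocyanin side, is on the minus strand at chr5:25628521-25629708. It had 2254, 1897 and 1946 CPM in Col-0 without treatment and 545, 693 and 560.3 CPM on methyl viologen. The med8 values were 1772, 2032 and 1863 CPM in the controls and 1117, 1001 and 1121 CPM with treatment. The order of the groups was the same as for PSAF, with treated Col-0 lowest and treated med8 between it and the controls. The fall was 3.39-fold in Col-0 (−1.76 ± 0.11, adjusted p = 1.49e-06) and 1.75-fold in med8 (−0.81 ± 0.11, adjusted p = 1.60e-04).

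The stromal subunits PSAD and PSAE, which form the docking site of ferredoxin, are each encoded by a pair of genes. PSAD1 held 2543, 2028 and 2078 CPM in the Col-0 controls, 1253, 1434 and 1304 CPM in treated Col-0, 1723, 1932 and 2098 CPM in the med8 controls and 1433, 1244 and 1244 CPM in treated med8. PSAD2 held 1107, 839 and 856 CPM, then 387, 499 and 429.7 CPM, then 698, 818 and 851 CPM, and then 524, 444 and 441 CPM in the same 4 groups. Treated libraries were below controls for both genes in both genotypes, and treated Col-0 and med8 overlapped. PSAD2 changed by −1.09 ± 0.14 in Col-0 and −0.75 ± 0.14 in med8, and PSAD1 by −0.74 ± 0.11 and −0.55 ± 0.11 (adjusted p at most 0.00224 for these).

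PSAE1 had 2769, 2416 and 2464 CPM in Col-0 control seedlings, 1420.0, 1553 and 1414 CPM in treated Col-0, 2458, 2684 and 2629 CPM in the med8 controls and 1748, 1568 and 1555 CPM in treated med8. For PSAE2 the values were 891, 711 and 744 CPM, 451, 479 and 491 CPM, 703, 763 and 779 CPM, and 571, 496 and 468 CPM in that order. Neither gene had a treated library that reached the controls of its genotype. PSAE1 changed by −0.80 ± 0.09 in Col-0 and −0.67 ± 0.09 in med8, and PSAE2 by −0.72 ± 0.10 and −0.55 ± 0.10 (adjusted p at most 0.00122 for these).

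The 6 genes for membrane subunits are among those that fell. PSAH, together with PSAL and PSAO, forms the side of photosystem I where mobile antenna can dock. PSAH1 held 846, 708 and 721 CPM in the Col-0 controls, 444, 484 and 459 CPM in treated Col-0, 818, 898 and 933 CPM in the med8 controls and 599.6, 528 and 511 CPM in treated med8. PSAH2 held 1494, 1302 and 1271 CPM, 764, 812 and 709 CPM, 1255, 1313 and 1367 CPM, and 858, 792 and 821 CPM in the same order. Both were lower on methyl viologen in every library, and all 3 treated med8 libraries of PSAH1 lay above treated Col-0. PSAH2 changed by −0.83 ± 0.09 in Col-0 and −0.67 ± 0.09 in med8 (adjusted p at most 9.92e-05).

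PSAK, a membrane subunit on the antenna side, had 2425, 1978 and 2052 CPM in Col-0 without treatment and 1073, 1177 and 1086 CPM on methyl viologen. Its med8 controls held 1812, 2019 and 2085 CPM, and treated med8 held 1306, 1126 and 1145 CPM. Treated libraries again lay below the controls of either genotype. The changes of PSAG, which anchors the antenna, PSAH1, PSAK, PSAL and PSAO ran from −0.68 (PSAL) to −0.95 (PSAK) in Col-0 and from −0.49 (PSAL) to −0.73 (PSAK) in med8, with adjusted p at most 0.00261. None of the 6 membrane and 4 stromal genes passed the test of a difference in response between the genotypes (adjusted p of the interaction at least 0.287). For these 10 genes the fitted difference in response, med8 minus Col-0, ran from 0.02 ± 0.13 for PSAH1 to 0.34 ± 0.19 for PSAD2.

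LHCA1 to LHCA4, the proteins of the antenna belt, fell in both genotypes. LHCA1 went from between 6185 and 8826 CPM to between 4525 and 5316 CPM in Col-0 (−0.55 ± 0.14, adjusted p = 0.0139) and by −0.72 ± 0.15 in med8. In Col-0 it no longer passed with treated replicate 3 left out, where the adjusted p was 0.059, within a range of 8.7e-04 to 0.059 over 20 alternative fits. LHCA2 changed by −0.85 ± 0.11 in Col-0 and −0.51 ± 0.11 in med8, LHCA3 by −0.76 ± 0.11 and −0.62 ± 0.11, and LHCA4 by −0.50 ± 0.11 and −0.72 ± 0.11 (adjusted p at most 0.00598 for these). Without both libraries that stood apart, the Col-0 changes were −0.37 for LHCA1, −0.75 for LHCA2, −0.65 for LHCA3 and −0.38 for LHCA4.

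LHCA5 (AT1G45474) and LHCA6 (AT1G19150) are minor antenna proteins that connect photosystem I with the NDH complex. LHCA5 had 179, 143 and 152 CPM in Col-0 control seedlings and 130.4, 129.8 and 123 CPM on methyl viologen. The med8 controls had 156, 172 and 189.6 CPM, and treated med8 had 104, 93.1 and 94.0 CPM. The treated med8 libraries were the lowest, below all treated Col-0 libraries. LHCA5 fell by 0.31 ± 0.09 in Col-0 (adjusted p = 0.0296) and by 0.83 ± 0.10 in med8 (adjusted p = 4.28e-05). Its call in Col-0 was lost in 5 of 20 alternative fits, those without Col-0 control replicate 1 or 3 or any of the treated Col-0 libraries (adjusted p 0.0113 to 0.106 over all).

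LHCA6 held 155, 116 and 112 CPM in the Col-0 controls and 112, 125.1 and 103 CPM on methyl viologen, and these groups overlapped. The med8 controls held 138, 148 and 176 CPM and treated med8 109, 93.9 and 92.1 CPM, without overlap. LHCA6 fell in med8 (−0.65 ± 0.14, adjusted p = 0.00264) and had −0.17 ± 0.14 in Col-0 (adjusted p = 0.389). The Col-0 value rests on control replicate 1, the highest Col-0 library, and was −0.0017 without both libraries that stood apart (adjusted p = 0.991). The difference in response was −0.48 ± 0.19 and did not pass the test (adjusted p = 0.131).

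The carriers upstream of photosystem I were also lower on methyl viologen, except that PETE1 did not pass the test in Col-0. PETC, the Rieske iron-sulfur protein of the cytochrome complex, held 1352, 1134 and 1145 CPM in the Col-0 controls and 794, 829 and 774 CPM on methyl viologen. It held 1188, 1298 and 1369 CPM in the med8 controls and 819.5, 719 and 710.1 CPM in treated med8. PETC was lower in every treated library, with −0.60 ± 0.10 in Col-0 (adjusted p = 7.71e-04) and −0.78 ± 0.10 in med8 (adjusted p = 7.39e-05).

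PETE2, the more abundant plastocyanin gene, had 3699, 3013 and 3100.1 CPM in Col-0 without treatment, 2269, 2296 and 2167 CPM in treated Col-0, 3412, 3604 and 4060.2 CPM in the med8 controls and 2494, 2143 and 2089 CPM in treated med8. PETE1 stood at 218, 166 and 174 CPM, 160.1, 175 and 152 CPM, 194, 202 and 232 CPM, and 173, 161 and 151 CPM in the same order. PETE2 was lower in all treated libraries, whereas for PETE1 the Col-0 groups overlapped and the med8 groups did not. PETE2 changed by −0.54 ± 0.11 in Col-0 and by −0.72 ± 0.11 in med8 (adjusted p = 0.00311 and 2.97e-04). PETE1 had −0.19 ± 0.11 in Col-0 (adjusted p = 0.216), or −0.06 without both libraries that stood apart, and fell by 0.37 ± 0.11 in med8 (adjusted p = 0.017). The med8 call of PETE1 was lost without med8 methyl viologen replicate 2 or 3, with adjusted p from 0.00322 to 0.0654 over 20 alternative fits.

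At the stromal side the leaf ferredoxins differed in their response in Col-0, whereas both fell in med8. FD2 (AT1G60950), the major leaf ferredoxin, named FED A in RefSeq, lies on the plus strand at chr1:22444307-22445291. It held 1167, 1013 and 921 CPM in the Col-0 controls and 218, 286 and 263 CPM on methyl viologen. In med8 the controls held 1027, 1188 and 1257 CPM and the treated libraries 726, 574 and 650.4 CPM. Treated Col-0 was far below every other group, and treated med8 lay between it and the controls with no overlap. FD2 fell 4.04-fold in Col-0 (−2.02 ± 0.14, adjusted p = 1.88e-06) and 1.78-fold in med8 (−0.83 ± 0.13, adjusted p = 4.16e-04).

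FD1 (AT1G10960), the minor leaf ferredoxin, is on the plus strand at chr1:3664187-3665040. It had 173, 168 and 167 CPM in Col-0 control seedlings and 211, 186 and 194 CPM on methyl viologen. The med8 controls had 154, 145 and 178 CPM, and treated med8 had 99.3, 86.4 and 82.7 CPM. Treated libraries were thus higher than controls in Col-0 and lower in med8, without overlap in either. FD1 fell 1.78-fold in med8 (−0.83 ± 0.09, adjusted p = 3.73e-05) and had 0.22 ± 0.09 in Col-0 (adjusted p = 0.102), or 0.23 without both libraries that stood apart (adjusted p = 0.045). It overlaps AT1G10950 on the same strand, with 0.513% of its windows shared.

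The reductases FNR1 and FNR2, which transfer electrons from ferredoxin to NADP, fell in both genotypes. FNR1 held 1047, 895 and 932 CPM in the Col-0 controls, 704, 749 and 699 CPM in treated Col-0, 937, 1004 and 1074 CPM in the med8 controls and 749, 667 and 664 CPM in treated med8. FNR2 held 1911, 1567 and 1586 CPM, 969.7, 1099 and 964 CPM, 1569.9, 1593 and 1694 CPM, and 921, 881 and 959.5 CPM in the same groups. Every treated library was below every control for both genes. FNR2 changed by −0.74 ± 0.10 in Col-0 and −0.81 ± 0.10 in med8, and FNR1 by −0.42 ± 0.09 and −0.54 ± 0.09 (adjusted p at most 0.00422 for these).

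FDC1 and FDC2 encode ferredoxin-like proteins with an extended carboxyl end. FDC2 had 57.9, 52.9 and 54.0 CPM in Col-0 without treatment, 37.0, 40.2 and 38.3 CPM in treated Col-0, 53.9, 57.2 and 60.3 CPM in the med8 controls and 37.2, 33.5 and 36.4 CPM in treated med8. All treated libraries were lower, and FDC2 had the smallest adjusted p of the set in med8 (−0.68 ± 0.07, adjusted p = 1.51e-05, and −0.51 ± 0.07 with adjusted p = 1.71e-04 in Col-0). FDC1, whose counts cannot be separated from its opposite-strand neighbour if strand was not used, held 120.0, 97.0 and 101 CPM, 101, 98.2 and 94.5 CPM, 119, 122 and 145 CPM, and 95.7, 85.2 and 84.3 CPM in that order. Its Col-0 groups overlapped (−0.12 ± 0.10, adjusted p = 0.398, and −0.02 without both libraries that stood apart), and it fell in med8 (−0.55 ± 0.10, adjusted p = 9.03e-04).

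Of the 3 genes of cyclic electron flow, PGR5 and PGRL1A rose in Col-0 and PGRL1B did not pass the test. PGR5 (AT2G05620) encodes a small stromal protein needed for cyclic flow and lies on the minus strand at chr2:2080647-2081859. It had 128, 106 and 112 CPM in Col-0 control seedlings and 151, 145 and 132 CPM on methyl viologen. Among med8 libraries the controls held 139, 147 and 152 CPM and the treated ones 105, 94.8 and 89.5 CPM. The treated libraries were above the controls in Col-0 and below them in med8, with no overlap. PGR5 rose 1.23-fold in Col-0 (0.30 ± 0.09, adjusted p = 0.0231) and fell 1.51-fold in med8 (−0.60 ± 0.09, adjusted p = 2.67e-04).

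PGRL1A (AT4G22890) encodes the thylakoid membrane partner of PGR5 and is on the plus strand at chr4:12006986-12009536. Its levels were 485, 405 and 393 CPM in the Col-0 controls and 607, 612 and 454 CPM on methyl viologen. They were 533, 557 and 577 CPM in the med8 controls and 328, 311 and 351 CPM on methyl viologen. In Col-0 the lowest treated library, replicate 3, lay under the highest control, replicate 1, whereas in med8 all treated libraries were lower. PGRL1A rose 1.303-fold in Col-0 (0.38 ± 0.12, adjusted p = 0.0324) and fell 1.68-fold in med8 (−0.75 ± 0.12, adjusted p = 4.34e-04). Both rises in Col-0 rest on few libraries: PGR5 no longer passed when Col-0 control replicate 2 or 3 or Col-0 methyl viologen replicate 1 or 2 was left out (adjusted p 0.00315 to 0.102 over 20 alternative fits). The PGRL1A call was lost in the same 4 fits and in the fit of only the groups compared (adjusted p 0.00498 to 0.12). Both stayed positive in all 20 fits.

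PGRL1B, the second PGRL1 gene, held 40.9, 39.2 and 39.0 CPM in the Col-0 controls, 38.9, 48.3 and 35.5 CPM in treated Col-0, 43.3, 46.0 and 41.4 CPM in the med8 controls and 39.3, 38.1 and 41.4 CPM in treated med8. Treated and control libraries overlapped in both genotypes. It was the 1 gene of the 30 that passed in neither genotype (0.04 ± 0.10 in Col-0 and −0.14 ± 0.10 in med8, adjusted p = 0.778 and 0.276).

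**Figure D2:**
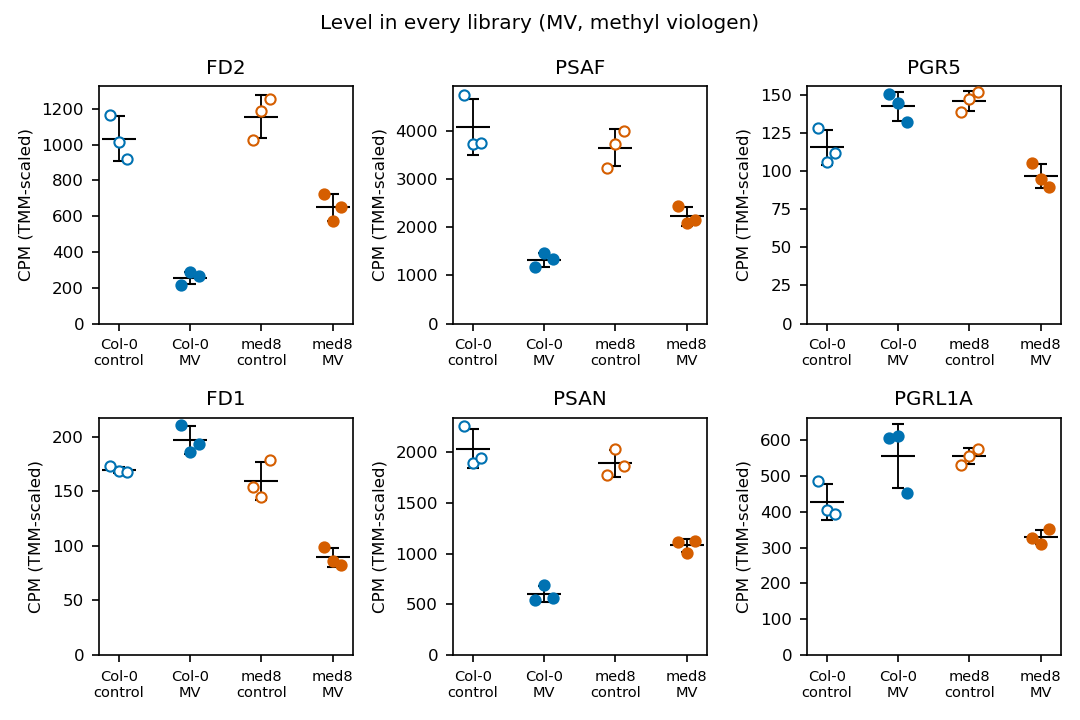
TMM-scaled CPM of 6 genes in every library (open points, control; filled points, methyl viologen; blue, Col-0; orange, med8), with the group mean and SD as black bars. FD2, PSAF and PSAN are lowest in Col-0 on methyl viologen, and FD1, PGR5 and PGRL1A are lowest in med8 on methyl viologen.

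Few genes differed between med8 and Col-0 on control medium, in this set and over all tested genes. PGR5 was the 1 gene of the 30 that passed, higher in med8 (0.34 ± 0.09, adjusted p = 0.0461), where 2.81% of all tested genes were higher and 2.98% lower. The count called in the set is thus close to the shares of all genes. PGR5 lost that call in 12 of 20 alternative fits, with adjusted p from 0.00807 to 0.172. The other changes ran from −0.24 (PSAD2) to 0.38 (PGRL1A, adjusted p = 0.0911), with a median of 0.052 over the set. PGR5, PGRL1A and PGRL1B were the genes whose med8 control libraries all lay above the Col-0 controls, where 11.9% of all tested genes did, and 0 of the 30 lay wholly below, where 11.4% did. At an unadjusted p under 0.05, 4 genes were higher and 0 lower, where 10.5% and 11.3% of all genes were. DESeq2 called 2 higher and 0 lower, where it called 4.72% and 4.63% of all genes. Without the libraries that stood apart, 3 genes were called higher and 0 lower, where 4.45% and 4.4% of all genes were.

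On methyl viologen 4 of the 30 genes were higher in med8 and 4 lower, where 10.8% of all tested genes were higher and 12.9% lower. FD2 was 2.54-fold higher (1.35 ± 0.13, adjusted p = 4.36e-05), PSAN 1.801-fold (0.85 ± 0.11, adjusted p = 2.76e-04) and PSAF 1.68-fold (0.75 ± 0.13, adjusted p = 0.00164). LHCA2 was also higher (0.40 ± 0.11, adjusted p = 0.0217), a call that needed treated Col-0 replicates 1 and 3 and treated med8 replicate 1 (adjusted p 0.00268 to 0.0882 over 20 alternative fits). FD1 was 2.20-fold lower in med8 (−1.14 ± 0.09, adjusted p = 1.04e-05), PGRL1A 1.69-fold (−0.76 ± 0.12), PGR5 1.47-fold (−0.56 ± 0.09) and LHCA5 1.32-fold (−0.40 ± 0.09). Their adjusted p was at most 0.0102. Libraries did not overlap for 7 genes that were higher in med8, where 23.1% of all tested genes were, and for 5 that were lower, where 23.2% were. Without the libraries that stood apart, 5 genes were called higher and 4 lower, where 16.8% and 18.2% of all genes were. The shares of the 30 genes are thus close to those of all genes in this comparison.

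The response to methyl viologen itself differed between the genotypes for 7 of the 30 genes. The interaction, the response in med8 minus that in Col-0, passed for 3 genes above 0, where 6.25% of all tested genes did, and for 4 below, where 7.66% did. It is built from the same 12 libraries as the comparisons above and adds no independent samples. FD2 (1.18 ± 0.19, adjusted p = 0.0016), PSAN (0.95 ± 0.16, adjusted p = 0.00214) and PSAF (0.91 ± 0.18, adjusted p = 0.00685) fell in both genotypes, and fell less in med8. FD1 (−1.05 ± 0.13, adjusted p = 3.51e-04), PGR5 (−0.90 ± 0.13, adjusted p = 7.5e-04) and PGRL1A (−1.13 ± 0.17, adjusted p = 0.00116) went down in med8, while in Col-0 PGR5 and PGRL1A rose and FD1 did not pass. LHCA5 fell in both and more in med8 (−0.53 ± 0.13, adjusted p = 0.0221). The calls of FD2, PSAN, PSAF, FD1, PGR5 and PGRL1A were kept in all 19 alternative fits, whereas that of LHCA5 was lost in 5 of them.

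Without both libraries that stood apart, the interaction was 1.13 for FD2, 0.85 for PSAN and 0.83 for PSAF. It was −0.99 for FD1, −0.97 for PGR5, −1.22 for PGRL1A and −0.57 for LHCA5, and all 7 passed (adjusted p at most 0.00297, and from 1.02e-12 to 0.0656 over all alternatives of these genes). FDC1 and LHCA6 passed in addition in that fit (−0.45 and −0.55), where 8.86% of all genes passed above 0 and 10.7% below. For the other 23 genes no difference in response was shown, and their fitted differences ran from −0.48 to 0.35.

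**Figure D3:**
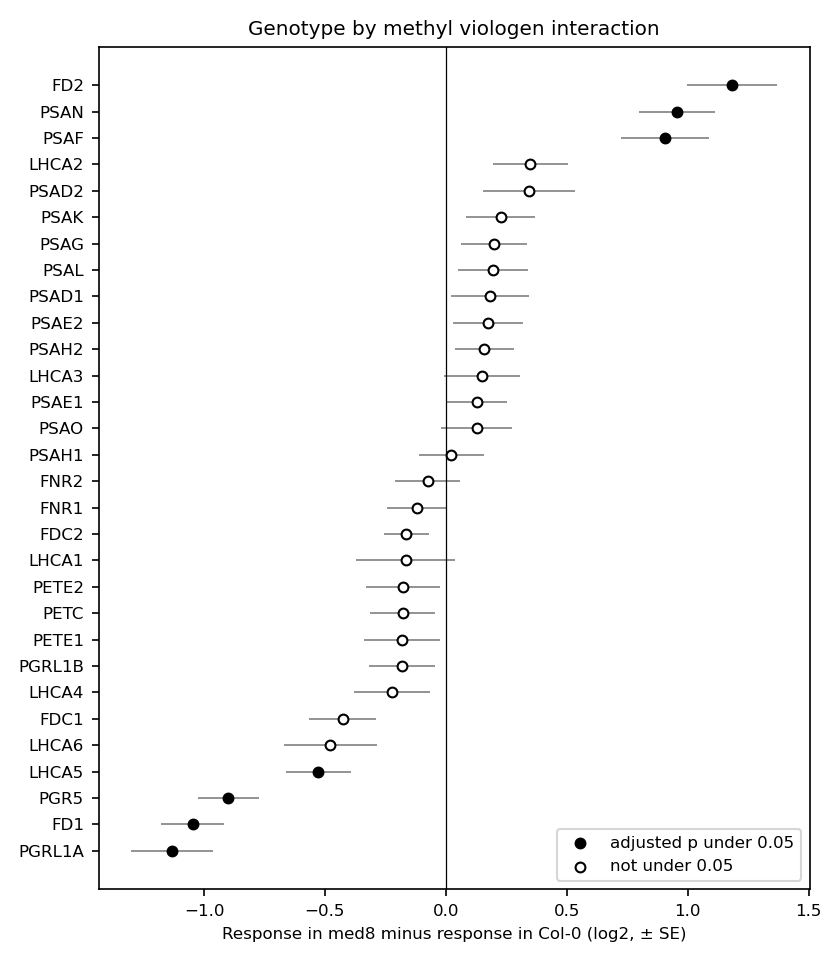
Interaction of genotype and methyl viologen for the 30 genes, ordered by size, as the response in med8 minus the response in Col-0 on the log2 scale with bars of ± 1 SE. The filled points, with adjusted p under 0.05, are FD2, PSAN and PSAF above 0 and LHCA5, PGR5, FD1 and PGRL1A below 0.

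The 250 bases upstream of the annotated start are shown for FD2 and PSAF, which fell less in med8, and for PGR5 and PGRL1A, which rose in Col-0 and fell in med8. They are from the TAIR10.1 reference, written 5′ to 3′ in the direction of the gene, at chr1:22444057-22444306 (plus), chr1:11216142-11216391 (minus), chr2:2081860-2082109 (minus) and chr4:12006736-12006985 (plus). Capitals mark matches on either strand to the G-box CACGTG, the I-box core GATAAG, the GT-1 type GGTTAA and the evening element core AATATCT. The windows of FD1 and PSAN reach into neighbouring genes and are not shown.
FD2: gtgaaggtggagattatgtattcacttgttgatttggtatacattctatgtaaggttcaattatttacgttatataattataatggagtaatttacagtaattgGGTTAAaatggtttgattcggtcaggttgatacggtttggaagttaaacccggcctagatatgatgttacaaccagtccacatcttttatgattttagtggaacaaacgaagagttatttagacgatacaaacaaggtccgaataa
PSAF: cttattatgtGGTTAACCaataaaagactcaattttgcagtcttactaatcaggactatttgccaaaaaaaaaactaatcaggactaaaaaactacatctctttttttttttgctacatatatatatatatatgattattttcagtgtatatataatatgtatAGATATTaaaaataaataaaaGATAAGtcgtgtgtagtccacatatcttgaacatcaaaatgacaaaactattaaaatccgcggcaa
PGR5: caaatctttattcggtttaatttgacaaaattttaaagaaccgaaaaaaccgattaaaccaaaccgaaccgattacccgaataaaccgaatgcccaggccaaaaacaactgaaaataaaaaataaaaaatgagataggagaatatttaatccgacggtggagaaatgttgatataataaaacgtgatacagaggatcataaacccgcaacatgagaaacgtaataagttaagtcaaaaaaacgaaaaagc
PGRL1A: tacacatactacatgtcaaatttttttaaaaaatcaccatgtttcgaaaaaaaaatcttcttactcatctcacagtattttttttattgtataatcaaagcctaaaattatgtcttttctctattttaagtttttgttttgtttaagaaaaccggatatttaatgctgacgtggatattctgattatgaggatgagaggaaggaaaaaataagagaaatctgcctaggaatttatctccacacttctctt

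The FD2 window holds a GT-1 type match that begins 146 bases before the start. The PSAF window holds GT-1 type matches on both strands that overlap each other, 240 and 238 bases before the start, an evening element core at 87 and an I-box core at 66. The PGR5 and PGRL1A windows hold none of these letters. Over all 30 windows the I-box core was present in 10, or 33.3%, where 12.3% of 27443 annotated genes had it, and the G-box in 4, or 13.3%, where 6.49% had it. The GT-1 type was in 13.3% against 14.6% of all windows, the evening element core in 13.3% against 10%, the core GTAC in 23.3% against 34.3% and TATAAA in 46.7% against 47.3%. These are matches of letters, described without a test.

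Ratios within gene pairs need no scaling between libraries and show how members of a pair shifted against each other. For FD2 over FD1 the log2 ratios were 2.76, 2.59 and 2.46 in the Col-0 controls and 0.047, 0.62 and 0.44 on methyl viologen. In med8 they were 2.74, 3.04 and 2.82 on control medium and 2.87, 2.73 and 2.97 on methyl viologen. FD2 thus had 6.08 times the CPM of FD1 in the Col-0 controls and 1.29 times on methyl viologen, and 7.27 and 7.25 times in med8. The change in log2 ratio was −2.23 ± 0.19 (SE) in Col-0 and −0.0034 ± 0.11 in med8. A two-sided exact permutation test of 3 against 3 libraries cannot go below p = 0.1, which is what it gave for Col-0 (0.165 adjusted over 28 tests, 7 pairs by 4 comparisons). In med8 the exact p was 0.9.

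For PGRL1A over PGRL1B the mean log2 ratio went from 3.42 to 3.77 in Col-0 and from 3.67 to 3.06 in med8, in opposite directions and without overlap of libraries within either genotype (exact p = 0.1 in both, the smallest possible). PETE2 over PETE1 dropped by nearly the same amount in both, from 4.14 to 3.79, which is 17.7 to 13.8 times in Col-0 and 17.6 to 13.9 times in med8. FNR2 over FNR1 dropped from 0.81 to 0.49 in Col-0 and from 0.69 to 0.41 in med8. PSAD2 over PSAD1 dropped from −1.25 to −1.61 and from −1.28 to −1.48, so PSAD2 lost ground to PSAD1 in both. PSAE2 over PSAE1 went from −1.71 to −1.63 and from −1.79 to −1.67. PSAH2 over PSAH1 was 0.84 in the Col-0 controls, 0.72 in treated Col-0, 0.57 in the med8 controls and 0.59 in treated med8. Of the 7 pairs, the libraries did not overlap between media for 6 in Col-0 and for 5 in med8, and no adjusted p went below 0.165. Among single genes 22.9% lay wholly higher and 21.3% wholly lower in Col-0, and 28.1% and 25% in med8. The share for ratios of other gene pairs was not computed, so the pair counts cannot be called high or low.

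**Figure D4:**
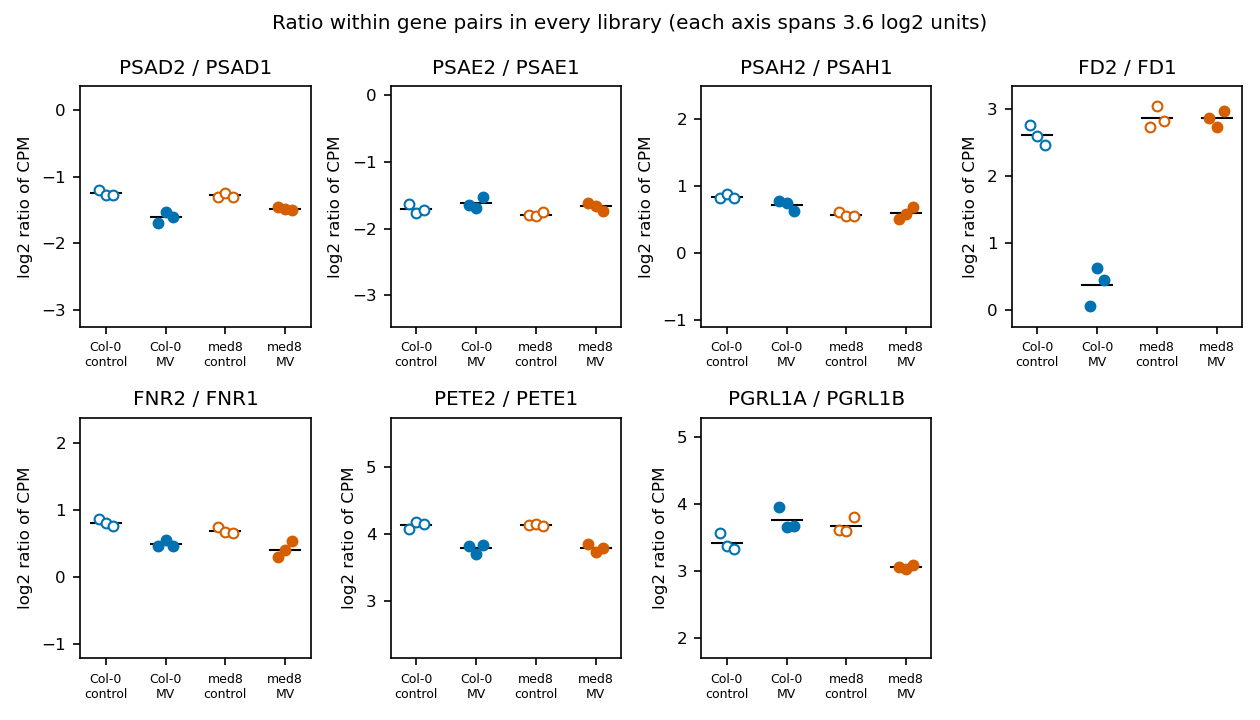
Log2 ratio of CPM within 7 gene pairs in every library (open, control; filled, methyl viologen; blue, Col-0; orange, med8), with the group mean as a black line and axes of equal span. The FD2 to FD1 ratio stands at 0.37 on average in Col-0 on methyl viologen and at 2.60 to 2.86 in the other groups.

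Related genes outside the set were counted from lists, and each count is to be read against the share of all tested genes. That share was 13.4% fallen and 15.4% risen in Col-0, 21.2% fallen and 21.8% risen in med8, and 6.25% above 0 and 7.66% below 0 for the interaction. The chloroplast NDH complex carries the other route of cyclic flow, and all 16 of its nuclear subunit genes fell in med8 (median −0.716). In Col-0, 8 fell and 3 rose (median −0.284), and 3 of 16 is near the share of all genes that rose. The smallest adjusted p in Col-0 were those of PNSB4 (−0.58 ± 0.07) and PNSB3 (−0.84 ± 0.12), and the 3 that rose, named after their values were seen, were NDHT (0.58 ± 0.10), PNSB2 (0.42 ± 0.09) and NDHM (0.26 ± 0.08). The interaction passed for 8 of the 16, all below 0, with NDHT at −1.28 ± 0.14 and NDHM at −1.09 ± 0.12 (adjusted p at most 1.74e-04), as for PGR5 and PGRL1A.

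Of 10 genes for proteins that bind FNR and for photosystem I assembly, 4 fell in Col-0. LIR1 (−0.65 ± 0.11) and the FNR anchor TIC62 (−0.71 ± 0.12) were foremost there. In med8, 9 fell, with the assembly factors PSA3 (−0.66 ± 0.07) and PYG7 (−0.62 ± 0.08) foremost. The interaction passed for 3 of the 10, all below 0. Among 7 enzymes and subunits that take electrons from ferredoxin, 4 fell in Col-0, led by FTRA2, a variable subunit of ferredoxin-thioredoxin reductase (−1.91 ± 0.10, adjusted p = 4.81e-07), and NIR1, nitrite reductase (−0.79 ± 0.09). In med8, 4 fell and 2 rose, and FTRB and FTRA2 stood at −0.83 ± 0.08 and −0.83 ± 0.10. The interaction was above 0 for 4 of the 7, including FTRA2 (1.08 ± 0.14) and NIR1 (0.73 ± 0.13), and below 0 for 1. Of 4 tested genes in the list of root-type carriers, 2 rose and 0 fell in Col-0, and 3 rose and 0 fell in med8. The list also holds cytochrome c6A, which lay at only 1.64 to 2.80 CPM and passed in neither genotype. FD3, the root-type ferredoxin, changed by 0.34 ± 0.08 in Col-0 and 1.19 ± 0.08 in med8, and RFNR1, a root-type reductase, by 0.76 ± 0.15 and 1.04 ± 0.15. RFNR2, the other root-type reductase, rose in med8 (1.07 ± 0.13) and had −0.19 ± 0.13 in Col-0 (adjusted p = 0.307). FD4 was not analysed here.

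**Figure D5:**
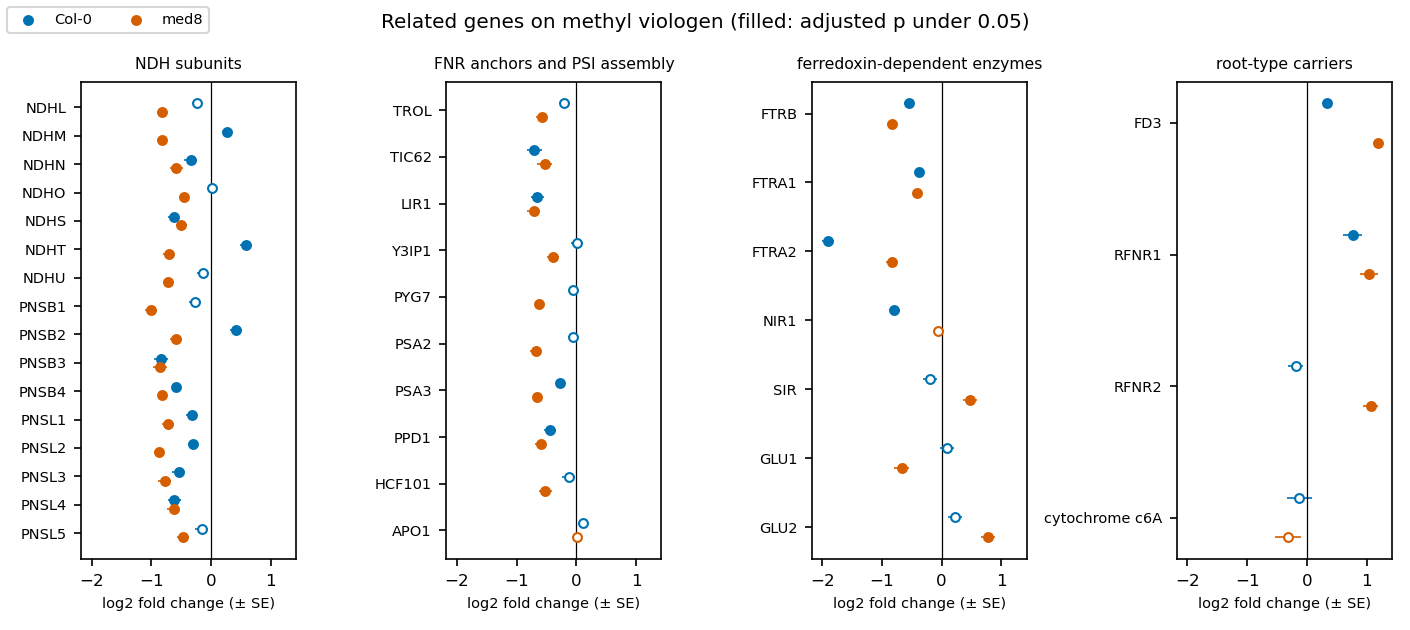
Log2 fold change on methyl viologen in Col-0 (blue) and med8 (orange) for genes of 4 related lists, with bars of ± 1 SE and filled points where the adjusted p was under 0.05. All 16 NDH subunit genes lie below 0 in med8, and FTRA2 is the lowest point in Col-0 at −1.91.

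Other measures moved with the groups. The summed level of the 16 root markers was 274 to 293 CPM in the Col-0 controls, 221 to 268 CPM in treated Col-0, 144 to 242 CPM in the med8 controls and 272 to 278 CPM in treated med8, with med8 control replicate 3 lowest at 144. The 5 green shoot markers summed to 40588 to 49998 CPM, 34955 to 36589 CPM, 46137 to 55873 CPM and 30137 to 36617 CPM in the same groups. The root markers did not move together: 3 rose and 7 fell in Col-0, and 4 rose and 6 fell in med8. Over all tested genes 15.4% rose and 13.4% fell in Col-0, and 21.8% and 21.2% in med8. The summed root level in treated med8 includes PHO1 at 99.7, 103 and 112 CPM and NRT2.1 at 44.3, 38.7 and 42.1 CPM. In the med8 controls PHO1 had 47.7, 45.2 and 35.9 CPM and NRT2.1 had 3.37, 2.26 and 1.21 CPM. Of the shoot markers 2 fell and 1 rose in Col-0, and all 5 fell in med8, so in med8 the shoot markers were lower together with the photosystem I genes. In Col-0 they were mixed: LHCB1.3 (−0.66 ± 0.12), a light-harvesting protein of photosystem II, and CA1 (−0.52 ± 0.15), a carbonic anhydrase, fell, RCA, Rubisco activase, rose (0.56 ± 0.13), and RBCS1A and GAPA did not pass. The interaction passed for 2 of the 5 shoot markers, both below 0, where 7.66% of all tested genes did. That is the direction of PGR5, PGRL1A, FD1 and LHCA5 and the reverse of that of FD2, PSAN and PSAF.

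Clock genes differed too, and the labels give no hour of harvest. The mean log2 level of 5 morning genes (LHY, CCA1, RVE8, RVE4, PRR9) minus that of 5 evening genes (TOC1, GI, ELF4, LUX, PRR5) ran from −3.58 to −3.26 in the Col-0 controls and from −0.995 to −0.314 in treated Col-0. It ran from −2.56 to −2.29 in the med8 controls and from −1.90 to −1.64 in treated med8. All 5 morning genes rose and all 5 evening genes fell in Col-0. In med8, 3 morning genes rose and 1 fell, and 1 evening gene rose and 1 fell. Over all tested genes 15.4% rose and 13.4% fell in Col-0, and 21.8% and 21.2% in med8. The counts of evening genes in med8 are thus near the shares of all genes. The interaction passed below 0 for all 5 morning genes, where 7.66% of all tested genes did. It passed above 0 for all 5 evening genes, where 6.25% did. The part that tissue makeup or clock phase has in the changes of the 30 genes was not tested.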

How the data were processed

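Libraries were made with the TruSeq Stranded LT mRNA kit and read as 75 bp single ends on a NextSeq 500, per the labels' protocols. The authors deposited raw counts per locus, made with Trim Galore 0.3.3, TopHat2 2.1.0 and featureCounts (Subread 1.4.6) on TAIR10, per the submitters' processing notes. The strand setting of the counting is not given in the sources used here. Each locus in the table has at least 5 counts in at least 3 libraries.

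Counts were fitted with edgeR 4.0.16 in R 4.3.3: filterByExpr (minimum count 10, minimum total 15) removed 802 of 21543 loci, libraries of 30.47 to 34.69 M counts were scaled by TMM, and group means over all 12 libraries were compared by robust quasi-likelihood, with Benjamini-Hochberg adjustment over 20741 loci and a threshold of 0.05. The SE is the fold change divided by the square root of F. The common biological coefficient of variation was 12.7%. Pair ratios were compared with exact permutation tests (scipy 1.17.1). Gene models, exon lengths, 75-base windows and upstream sequences came from RefSeq TAIR10.1. The edgeR and DESeq2 fits, but not the other steps, were also tried on simulated counts. Far fewer genes changed there than here, and only in Col-0 on methyl viologen.

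The fits were repeated with RLE or upper-quartile scaling, without the filter or with a minimum of 1 CPM in 3 libraries, with a block for the replicate number, in DESeq2 1.42.0, on only the groups compared, and without each library or both libraries that stood apart. The genes, lists and alternatives were chosen with earlier results of these data known. The rule for values in every library took the 5 smallest adjusted p of each comparison, both genes of a pair, genes against the majority and genes called in neither genotype; of each related list the 2 smallest adjusted p are named.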

Additional observations from a re-analysis of the deposited data

Results flagged for a closer look

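The test of the interaction itself, the response to methyl viologen in med8 minus that in Col-0 (log2), passed for 7 of the 30 genes. It passed above 0 for 3, where 6.25% of all tested genes did, and below 0 for 4, where 7.66% did. FD2 had 1.18, PSAN 0.95 and PSAF 0.91, with falls in all treated libraries of both genotypes that were smaller in med8. FD1 had −1.05, PGR5 −0.90 and PGRL1A −1.13, where treated med8 libraries all lay below the med8 controls and treated Col-0 libraries lay above the Col-0 controls for FD1 and PGR5 and overlapped them for PGRL1A. LHCA5 had −0.53, with a fall in both genotypes that was larger in med8.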

How the results depend on the processing

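The count of genes that fell on methyl viologen stayed at 21 to 23 in Col-0 and at 28 or 29 in med8 when single libraries were left out, and the interaction passed for 3 genes above 0 and 3 to 6 below. Over all genes, those fits called 1974 to 3516 lower in Col-0 and 3557 to 4912 lower in med8. Their interaction passed for 827 to 1479 genes above 0 and 1038 to 1882 below. The 2 rises in Col-0 became 1 with only the groups compared, where 2955 of all genes rose. They ranged from 0 to 3 without single libraries, where 2367 to 3859 of all genes rose. On control medium the 1 gene called higher in med8 became 0 with upper-quartile scaling, 0 with the replicate block, 0 with only the groups compared, 2 with DESeq2 and 3 with both libraries that stood apart left out, and ranged from 0 to 4 without single libraries. Over all genes that comparison called 582 higher and 618 lower, but 68 and 75 with only the groups compared, 997 and 979 with DESeq2, and 176 to 731 and 226 to 929 without single libraries. The cause was not tested.

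Values near 0 changed sign. With both libraries left out, on control medium, PSAE2 went to 0.028, PSAH2 to 0.014, PSAN to 0.0011, PSAO to 0.027, LHCA3 to 0.088 and FNR2 to 0.021, and the interaction of PSAH1 to −0.039. On methyl viologen, med8 against Col-0, PSAD1 was 0.0089, PETE1 0.026 and PETE2 0.032 with upper-quartile scaling, and PETE2 0.004 with 1 CPM in 3 libraries and 0.0025 with only the groups compared. Without single libraries the response of PGRL1B in Col-0 ran from −0.093 to 0.14 and the interaction of PSAH1 from −0.065 to 0.067. On control medium PSAE1 ran from −0.0097 to 0.086, PSAE2 from −0.12 to 0.041, PSAH2 from −0.092 to 0.028, PSAO from −0.11 to 0.047, PSAL from −0.043 to 0.1045, LHCA2 from −0.021 to 0.15, LHCA3 from −0.079 to 0.094 and FNR2 from −0.11 to 0.038. On methyl viologen PETE1 ran from −0.058 to 0.049, PETE2 from −0.085 to 0.047, PSAD1 from −0.096 to 0.031 and PGRL1B from −0.14 to 0.088. Differences in pair ratio ran from −0.0297 to 0.018 for PETE2 to PETE1 on control medium, −0.037 to 0.0302 for it on methyl viologen, −0.079 to 0.0074 for PSAE2 to PSAE1 on methyl viologen, −0.067 to 0.083 for FD2 to FD1 in med8 and −0.021 to 0.063 for PSAH2 to PSAH1 in med8.

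Over 18 pairs of same-numbered libraries, deviations from the group means correlated from −0.379 to 0.458, with 7 over 0.1. For replicate 2 they ran from 0.068 to 0.458. Libraries with different numbers were not compared, so these values cannot decide whether the numbers mark pairs. With the replicate block, PGR5 lost its call on control medium.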
